A study of Homo sapiens with 6 samples.

Results

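The 8 genes described here are MGMT, MSH3, MSH6, PMS2, MPG, APEX1, PARP1 and XRCC1. They take part in direct reversal of DNA alkylation, mismatch repair or base excision repair. All were chosen by name as genes of the temozolomide response. They are 8 of the 57133 gene symbols measured, and all 8 were among the 14461 genes that passed the filter on low counts. RNA-seq was carried out in the human glioblastoma line T98G after CRISPR knockout of its CBX8 gene. The 3 CBX8 KO libraries came from knockout cells that carried the empty TetO-FUW vector, and the 3 WT CBX8 re-expression libraries from knockout cells that carried V5-tagged wild-type CBX8 behind the same doxycycline-inducible promoter. Cells of both groups received doxycycline at 1 µg/ml for 72 h. The labels give the genotype of the re-expression libraries as wild type, whereas their titles and the study's methods describe re-expression in the knockout line, and the latter was used. CBX8 is a chromobox subunit of Polycomb repressive complex 1, and the comparison addressed which transcripts differ when it is returned to knockout cells. The empty-vector and CBX8 cells were selected separately, so that effects of CBX8 and differences between the selected lines cannot be told apart. Whether the replicates were separate cultures is not stated, so p-values measure only the spread between libraries.

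Temozolomide and related agents methylate DNA bases. The adduct at the O6 position of guanine is removed by MGMT in a single transfer that consumes the protein, and where it persists, mispairing engages mismatch repair, which can end in cell death. N-methylated purines, the more abundant adducts, are excised by the glycosylase MPG and restored through APEX1, PARP1, XRCC1 and their partners. In glioblastoma, methylation of the CpG-rich MGMT promoter is associated with MGMT silencing, and T98G is known as an MGMT-expressing, temozolomide-resistant line.

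The stretches of DNA upstream of 3 of the genes are shown as a description of the sequence, and no transcript value rests on them. The MGMT stretch is the CpG-dense upstream region of the gene. The PMS2 and APEX1 stretches are the whole gaps that separate each gene from a neighbour transcribed in the opposite direction, AIMP2 and OSGEP, respectively. The sequences are from RefSeq windows of the GRCh38.p14 build, free of annotated exons, and are printed 5′ to 3′ on the strand of the repair gene with each CpG in capitals.
MGMT, chr10:129466991-129467189, plus strand: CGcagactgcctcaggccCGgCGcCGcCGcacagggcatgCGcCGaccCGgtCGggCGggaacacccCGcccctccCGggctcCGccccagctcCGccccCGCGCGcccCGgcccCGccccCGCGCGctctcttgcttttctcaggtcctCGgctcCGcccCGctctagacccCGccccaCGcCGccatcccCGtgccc
PMS2, chr7:6009131-6009254, minus strand: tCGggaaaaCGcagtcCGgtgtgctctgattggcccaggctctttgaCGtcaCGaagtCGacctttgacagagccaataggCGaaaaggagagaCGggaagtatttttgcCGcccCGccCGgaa
APEX1, chr14:20455090-20455190, plus strand: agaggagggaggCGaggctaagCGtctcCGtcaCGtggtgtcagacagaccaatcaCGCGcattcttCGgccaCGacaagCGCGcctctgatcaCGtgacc
The MGMT stretch held 29 CpGs in 199 bases, the PMS2 stretch 11 in 124 bases and the APEX1 stretch 11 in 101 bases.

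All 8 genes were found in the RefSeq table of promoter windows, which run from 250 bases before to 50 bases after a start site. The MGMT window held 45 CpGs, and 3.48% of the 35116 windows in the table held at least as many. MSH6 had 39 CpGs, MSH3 37, MPG 34, PARP1 33, XRCC1 31 and PMS2 24. APEX1 had 19 CpGs, the fewest of the 8, against a median of 14 over all windows. The letters GGGCGG, known as the GC box of Sp1, were searched on both strands and were present in 7 of the 8 windows, with 8 matches in MGMT and none in APEX1. They were present in 45.0% of all windows. CCAAT, the core of the NF-Y motif, was found in 5 of the 8 windows, including 3 matches in PMS2, and in 34.6% of all windows. The palindromic E-box CACGTG had 3 matches in APEX1 and 1 in MPG, and was present in 7.26% of all windows. The E2F-type letters TTTGGCGC or TTTCGCGC were found in the MSH3 window alone, as 2 overlapping matches on opposite strands, and in 1.15% of all windows. These matches describe the letters of the windows. DNA methylation and protein binding were not measured in the libraries used here.

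Total counts per library lay between 7950190 and 8659796, and no pair of replicates was identical. CBX8 counts were 96, 104 and 83 in the CBX8 KO libraries and 30372, 31408 and 27791 in the WT CBX8 re-expression libraries, a log2 fold change of 8.22 (SE 0.08), in the direction of the labels. Of the glioma and neural markers, VIM and CD44 were abundant in both groups, whereas SOX2 and S100B had no count in any library, NES had at most 4 counts, and OLIG2 and GFAP lay between 13 and 38 counts. CD44 was lower upon re-expression (log2 fold change -0.21, FDR = 0.00967), and OLIG2 and GFAP were higher in all 3 re-expression libraries without passing the test (FDR = 0.0557 and 0.131). The part of these markers in the results was not tested. Markers of epithelial, blood, endothelial and other cells did not exceed 0.470 counts per 1000000 (CPM) in any library. In bulk libraries such as these, fewer cells that express a gene and less RNA per cell cannot be told apart.

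Across the whole transcriptome, 1860 of the 14461 genes tested, or 12.9%, differed between the groups at FDR < 0.05 by the quasi-likelihood test of edgeR. Of these, 901 (6.23%) were higher and 959 (6.63%) were lower upon re-expression. Of the 8 repair genes, 1 (APEX1) was lower, none was higher, and 7 did not pass the test. At an unadjusted p under 0.05 the count was 2 of 8, APEX1 and PARP1, beside 25.3% of all genes tested. In the 15 alternatives run, which included DESeq2 and limma voom, none of the 8 was called higher and at most 1 was called lower. The share of 1 in 8 was close to the background of 12.9%. Log2 fold changes of the 8 genes were positive for 4 and negative for 4 and ranged from -0.19 to 0.12, with a median of -0.05 beside 0.0049 over all genes tested. Their median absolute log2 fold change was 0.12, beside 0.13 over all genes. The CPM of the 3 libraries of each group did not overlap for 4 of the 8 genes, compared with 28.9% of all genes tested. The smallest absolute log2 fold change called anywhere in the transcriptome was 0.14, and the largest absolute change of the 8 was that of PMS2, at -0.19.

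**Figure D1:**
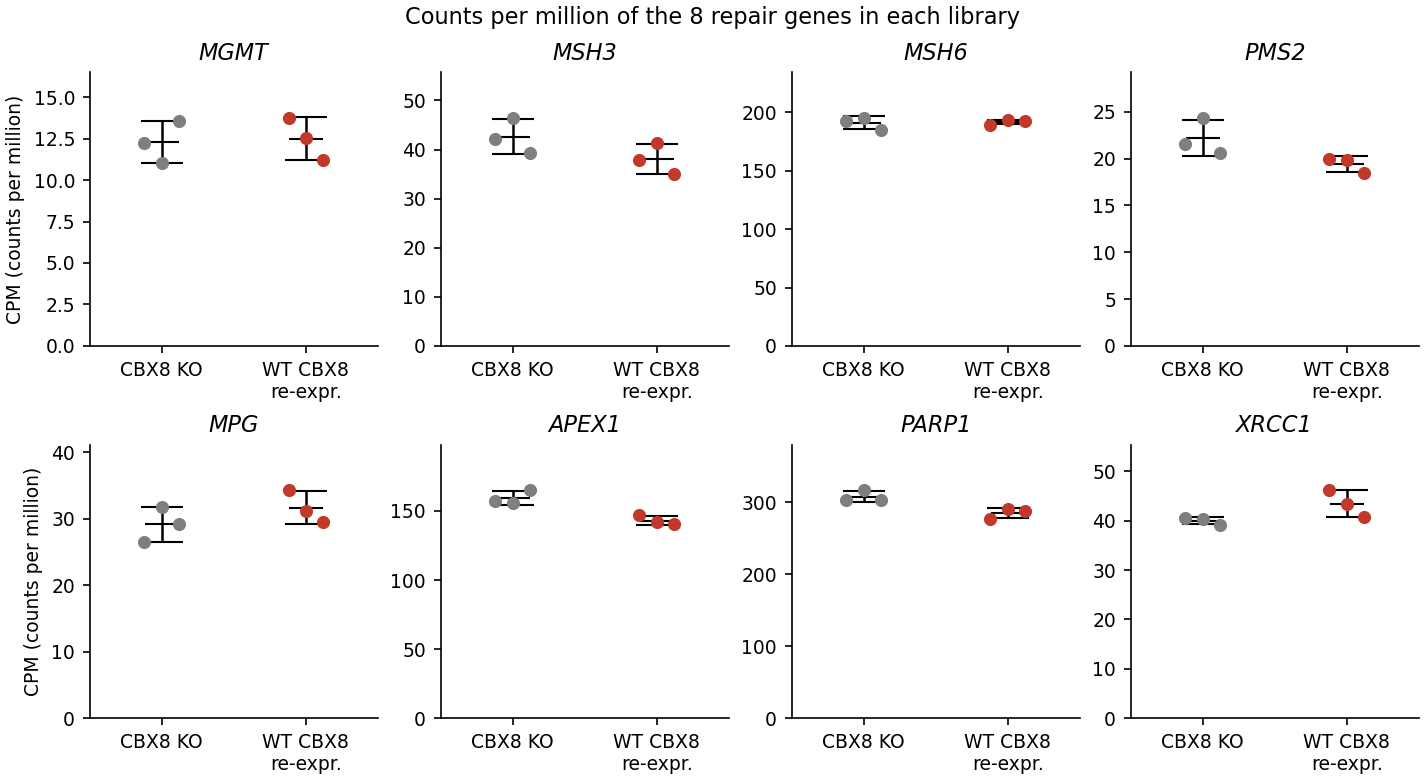
CPM (counts per 1000000, vertical axes, each from 0 and scaled per gene) of the 8 repair genes in the 3 CBX8 KO libraries (grey points) and the 3 WT CBX8 re-expression libraries (red points), with the mean and SD in black. For MGMT and for MSH6 the means of both groups differ by a fold of at most 1.02, while the groups of PMS2, APEX1, PARP1 and XRCC1 do not overlap.

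MGMT, the methyltransferase that directly reverses O6-methylguanine, was measured at a low count with no difference between the groups that passed the test. Its counts were 97, 93 and 106 in the CBX8 KO libraries and 117, 110 and 94 in the WT CBX8 re-expression libraries. After scaling this was 12.2, 11.1 and 13.6 CPM without CBX8 and 13.8, 12.6 and 11.2 CPM with it. The groups overlapped almost entirely, and the CPM means were 12.3 ± 1.26 and 12.5 ± 1.28 (SD, n = 3 each). The log2 fold change was 0.03 (SE 0.13, FDR = 0.923), with a 95% interval that reached from a fold of 0.852 to one of 1.22. Changes within this interval remain compatible with these libraries, and its width reflects the spread between libraries as well as the low count. The sign of the MGMT change turned negative when either CBX8 KO replicate 2 (log2 fold change -0.05) or WT CBX8 re-expression replicate 1 (-0.05) was left out. By CPM, MGMT stood at the 36.5 percentile of the genes tested, the lowest of the 8. Transcripts were therefore present in all 6 libraries, with and without CBX8.

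MGMT lies at chr10:129467190-129770983 on the plus strand of hg38, where its canonical transcript has 5 exons. An uncharacterised lncRNA gene on the same strand shares 495 bases, or 10.6%, of that transcript, so that some reads could have been assigned to either. Among the 10385 genes whose log2 CPM averaged 3 or more, the profiles most like that of MGMT over the 6 libraries were C9orf16 (Pearson's r = 0.971), FAM114A2 (r = 0.971) and B3GALT6 (r = 0.968). With 6 libraries, 51 genes had r above 0.9, and the values are given as a description. None of these 3 genes differed between the groups by the test, with log2 fold changes of 0.07, 0.05 and 0.0027 (FDR = 0.781, 0.789 and 0.990). All 3 changed sign when single libraries were left out.

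Mismatch recognition is carried out by heterodimers of a common subunit with either MSH6, for base mismatches and short loops, or MSH3, for larger loops, and PMS2 is a subunit of the endonuclease that acts downstream. MSH6 was the most abundant of these by CPM, with 1529, 1644 and 1446 counts in CBX8 KO and 1612, 1691 and 1615 counts upon re-expression. Its means were 191 ± 5.38 CPM and 192 ± 1.93 CPM (SD, n = 3 each), and the groups overlapped. The MSH6 log2 fold change was 0.0037 (SE 0.05, FDR = 0.975), and its 95% interval ran from -0.10 to 0.10, among the narrowest of the 8. Its sign was not settled and turned negative when any of 3 libraries was left out and in the fit without a filter on low counts.

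MSH3 and PMS2 both had lower means upon re-expression, but neither difference passed the test. MSH3 counts were 334, 391 and 307 in CBX8 KO and 323, 361 and 294 upon re-expression, or 42.6 ± 3.61 and 38.1 ± 3.12 CPM (SD, n = 3 each). The groups overlapped, since re-expression replicate 2, at 41.2 CPM, was above CBX8 KO replicate 3, at 39.3 CPM. The MSH3 log2 fold change was -0.16 (SE 0.08, FDR = 0.229), with a 95% interval from -0.34 to 0.01, and lay between -0.23 without WT CBX8 re-expression replicate 2 and -0.10 without CBX8 KO replicate 2.

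PMS2 counts were 171, 205 and 161 in CBX8 KO and 170, 174 and 155 upon re-expression. In CPM, all 3 re-expression libraries, at 19.98, 19.9 and 18.5, were below the 3 CBX8 KO libraries, at 21.6, 24.4 and 20.6. The means were 22.2 ± 1.95 and 19.4 ± 0.854 CPM (SD, n = 3 each). The log2 fold change was -0.19 (SE 0.10, FDR = 0.245), with a 95% interval from -0.40 to 0.02, and it was -0.12 without CBX8 KO replicate 2.

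The PMS2 count is uncertain for another reason. PMS2 belongs to a family with many near-identical copies, and 60.3% of its canonical transcript matched transcripts of 17 other genes at 95% identity or more over at least 100 bases. The counting program and its treatment of such reads are not given in the sources used here. Of the PMS2 pseudogenes, 6 passed the filter on low counts and none differed between the groups. PMS2CL, the copy with the longest match to PMS2 among those tested, had a log2 fold change of -0.20 (SE 0.14, FDR = 0.413), and its CPM values were also lower in all 3 re-expression libraries. PMS2P1 had a log2 fold change of 0.16 (FDR = 0.448), PMS2P3 0.17 (FDR = 0.692), PMS2P4 -0.07 (FDR = 0.901), PMS2P5 0.45 (FDR = 0.439) and PMS2P7 0.0059 (FDR = 0.993). Single libraries moved these values, with PMS2P1 at 0.07 without WT CBX8 re-expression replicate 1, PMS2P3 at 0.03 without CBX8 KO replicate 3, and PMS2P5 at 0.16 without WT CBX8 re-expression replicate 3 and 0.20 without CBX8 KO replicate 1. Of the 16 copies listed, 13 were among the gene symbols measured. The measured copies other than these 6, including the PARP1 pseudogenes PARP1P1 and PARP1P2, did not pass the filter. No match of this kind to another gene was found for APEX1 or PARP1.

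**Figure D2:**
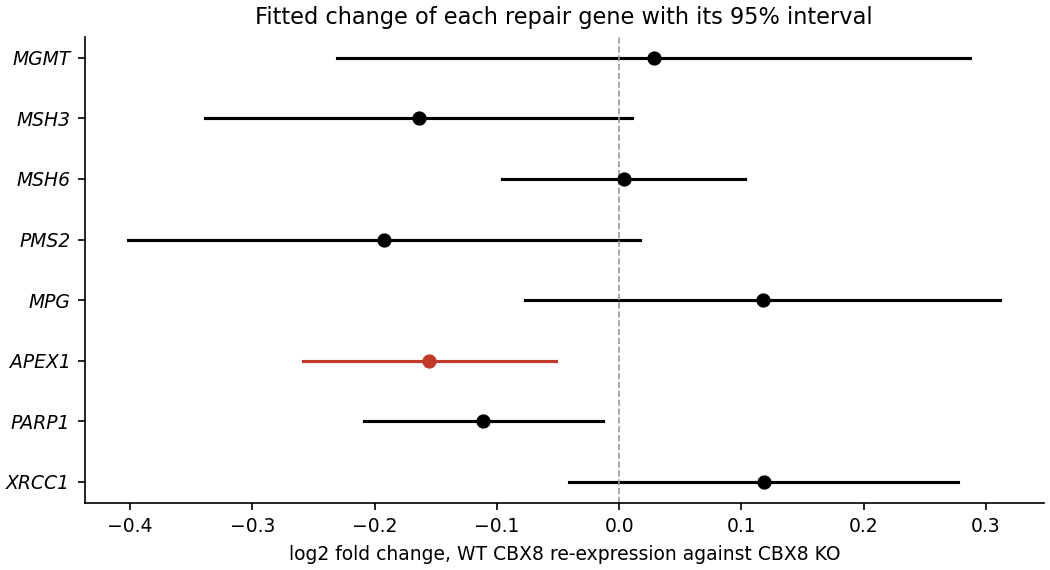
Log2 fold change (horizontal axis) of each repair gene in WT CBX8 re-expression against CBX8 KO, as a point with its 95% interval, in red where the gene passed FDR < 0.05. Only the APEX1 point, at -0.16, is red, and the PARP1 interval, from -0.21 to -0.01, is the other one that excludes 0.

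The base excision genes differed in sign. MPG, the glycosylase that removes N-methylated purines, had counts of 210, 268 and 228 in CBX8 KO and 292, 273 and 248 upon re-expression. Its means were 29.2 ± 2.67 and 31.7 ± 2.44 CPM (SD, n = 3 each), and the groups overlapped, with the lowest library in CBX8 KO (26.5 CPM) and the highest in re-expression (34.3 CPM). The log2 fold change was 0.12 (SE 0.09, FDR = 0.480), and it was 0.05 without either CBX8 KO replicate 1 or WT CBX8 re-expression replicate 1 and 0.19 without CBX8 KO replicate 2. The MPG value carries the largest annotation uncertainty after PMS2, since NPRL3, a gene on the opposite strand, shares 446 bases, or 43.1%, of the exons of the canonical MPG transcript at the 3′ ends of both genes. NPRL3 was more abundant than MPG, at 87.7 ± 8.15 and 79.9 ± 5.04 CPM (SD, n = 3 each), and its log2 fold change was -0.14 (FDR = 0.197), or -0.06 without CBX8 KO replicate 3. Whether the counting used strand is not given in the sources used here, and without strand the reads of the shared bases cannot be told apart.

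APEX1, the endonuclease that incises DNA at the abasic sites left by glycosylases, fell upon re-expression. Its counts were 1246, 1309 and 1290 in CBX8 KO and 1249, 1242 and 1179 upon re-expression. Scaled to CPM, the CBX8 KO libraries were at 157, 156 and 165 and the re-expression libraries at 147, 142 and 140. The groups did not overlap, and the means were 159 ± 5.10 and 143 ± 3.37 CPM (SD, n = 3 each). The log2 fold change was -0.16 (SE 0.05, FDR = 0.0411), a fold of 0.898 with a 95% interval from 0.836 to 0.965. In absolute size, this was at the 58.2 percentile of the genes tested.

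The APEX1 call lay close to the threshold and depended on the processing. It was lost in 9 of 15 alternatives, over which the log2 fold change stayed between -0.18 and -0.10 and the FDR between 0.033 and 0.216. Leaving out any single library other than WT CBX8 re-expression replicate 1 ended the call, with FDR = 0.0518 without CBX8 KO replicate 1, 0.0751 without CBX8 KO replicate 2, 0.132 without CBX8 KO replicate 3, and 0.152 or 0.107 when WT CBX8 re-expression replicate 2 or 3 was omitted. It was also lost with DESeq2 (FDR = 0.0907) and when libraries were scaled by total counts only (log2 fold change -0.10, FDR = 0.216). PIP4P1, a neighbour on the opposite strand, shares 87 bases of the canonical APEX1 transcript.

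PARP1, the sensor that binds strand breaks and synthesises poly(ADP-ribose), was the most abundant of the 8 by CPM. Its counts were 2407, 2668 and 2371 in CBX8 KO and 2358, 2541 and 2423 upon re-expression, or 308 ± 7.72 and 285 ± 7.11 CPM (SD, n = 3 each). All 3 re-expression libraries, from 277 to 290 CPM, were below the 3 CBX8 KO libraries, from 303 to 317 CPM. The log2 fold change was -0.11 (SE 0.05, FDR = 0.137; unadjusted p = 0.0279), which did not pass the threshold over all genes. With libraries scaled by total counts only it was -0.06.

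XRCC1, the scaffold that PARP1 activity recruits to breaks, had values in the other direction. Counts of XRCC1 were 321, 340 and 306 in CBX8 KO and 393, 379 and 343 upon re-expression, or 40.0 ± 0.749 and 43.4 ± 2.68 CPM (SD, n = 3 each). The 3 re-expression libraries were all above the CBX8 KO libraries, although the gap between 40.5 CPM in CBX8 KO replicate 1 and 40.8 CPM in WT CBX8 re-expression replicate 3 was small. The log2 fold change was 0.12 (SE 0.08, FDR = 0.365), and it was 0.07 without WT CBX8 re-expression replicate 1. XRCC1 shares 10.9% of its canonical transcript with an uncharacterised gene on the same strand and smaller parts with lncRNA genes on the opposite strand.

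Ratios within libraries put these genes side by side, each taken between values in CPM per kb of the canonical transcript rather than in CPM. The pairs were chosen after the values had been seen and are given with no test. MSH6 to MSH3 was 4.69 ± 0.273 in CBX8 KO and 5.27 ± 0.425 upon re-expression, with overlap between the groups. PARP1 to XRCC1 was 3.87, 4.05 and 3.997 in the CBX8 KO libraries and 3.10, 3.46 and 3.64 upon re-expression. APEX1 to MPG was 4.23, 3.48 and 4.03 in CBX8 KO and 3.05, 3.24 and 3.39 upon re-expression. For the latter 2 ratios the groups did not overlap, with means of 3.97 ± 0.0927 against 3.40 ± 0.279 and of 3.92 ± 0.388 against 3.23 ± 0.170 (SD, n = 3 each). For PARP1 to XRCC1 this was fixed in advance, since all PARP1 values were lower and all XRCC1 values higher upon re-expression. APEX1 to MPG likewise set a gene that was lower without overlap against one with a higher mean. These ratios therefore add no evidence to the values of the single genes.

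Comparison of levels between genes requires a length, and the order of the 8 genes depended in part on which one was used. Per kb of the canonical transcript in GENCODE release 44, the mean level over the 6 libraries was highest for APEX1 at 104 CPM per kb, followed by PARP1 at 74.6, MSH6 at 44.9, MPG at 29.4, XRCC1 at 20.3, MSH3 at 9.08, PMS2 at 4.09 and MGMT at 2.65 CPM per kb. The 6 libraries of each gene did not overlap those of the next gene in this order. The place of MGMT rests on a canonical transcript of 4678 bases, of which 621 are coding. Per kb of coding sequence, a length chosen after the data had been seen, MGMT was at 19.96 CPM per kb, above MSH3 at 11.8 and PMS2 at 8.05, and its libraries overlapped those of XRCC1 at 21.98. Per kb of all exons merged, MPG at 20.3 CPM per kb moved above PARP1 at 16.1, XRCC1 was at 15.2, and MSH6, whose merged exons span 17722 bases, was at 10.8. With merged exons MGMT, at 1.90 CPM per kb, was above PMS2 at 1.85, and the libraries of these genes overlapped. APEX1 was first with all 3 lengths, and MSH6 was above MSH3 and PMS2 with all 3.

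**Figure D3:**
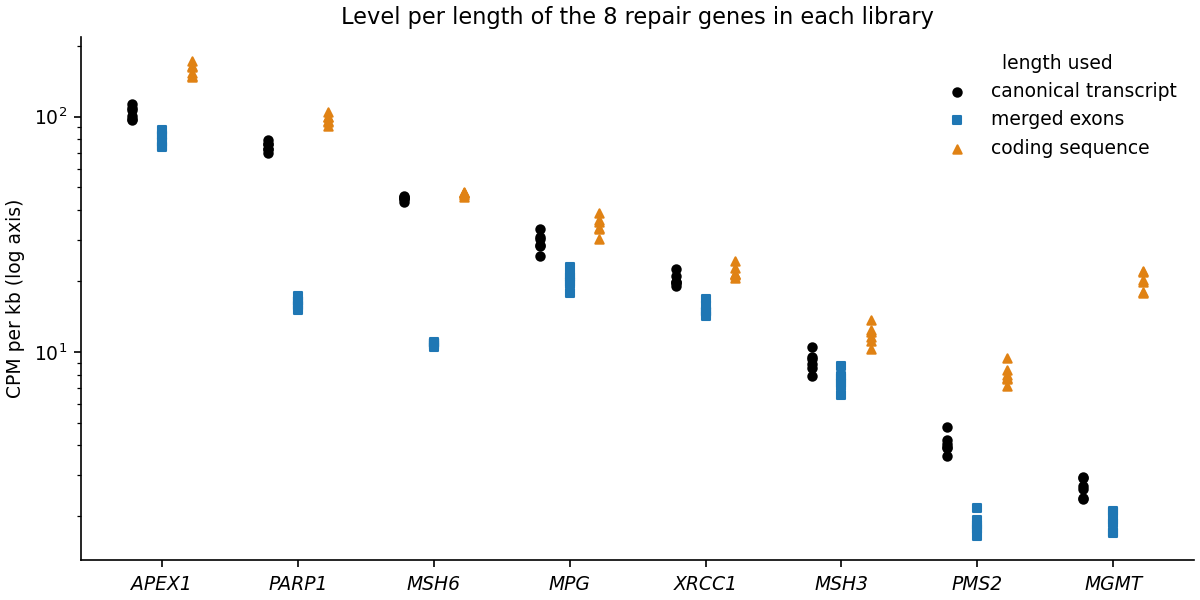
Level of each repair gene in CPM per kb (vertical log axis) in the 6 libraries, with the length of the canonical transcript (circles), of all exons merged (squares) or of the coding sequence (triangles). APEX1 is highest with each length, whereas MGMT is lowest at 2.65 CPM per kb of canonical transcript and reaches 19.96 CPM per kb of coding sequence.

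The start sites of PMS2 and APEX1 are close to that of a neighbour listed for comparison. XRCC1 also has a protein-coding neighbour in divergent orientation, 274 bases from its start site, which was not on the list of neighbours. PMS2 and AIMP2, a scaffold of the tRNA synthetase complex, start 223 bases apart and are transcribed away from each other. AIMP2 was at 79.9 ± 1.28 CPM in the knockout and 81.5 ± 5.05 CPM with CBX8 returned (log2 fold change 0.03, FDR = 0.819), beside -0.19 for PMS2. APEX1 and OSGEP, a tRNA-modifying enzyme, start 414 bases apart, also in divergent orientation. OSGEP was at 12.5 ± 1.57 and 11.6 ± 1.63 CPM, with a log2 fold change of -0.12 (FDR = 0.647), beside -0.16 for APEX1. OSGEP had 85 to 116 counts per library, and its value was -0.02 or -0.23 when WT CBX8 re-expression replicate 1 or 2, respectively, was left out.

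Neither AIMP2 nor OSGEP passed the test, nor did NPRL3. FBXO11, on the opposite strand to MSH6, overlaps 12.4% of the canonical MSH6 transcript and had a log2 fold change of -0.03 (FDR = 0.835). Of the 530 bases shared, only 34 are in the canonical FBXO11 transcript, and the rest are in exons of other FBXO11 transcripts.

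Other genes of the same pathways were taken from 6 lists with 57 genes in all, none of them among the 8. All 57 were tested, 2 were higher and 7 were lower upon re-expression, and 48 did not pass the test. The background was 6.23% of all genes higher and 6.63% lower. Log2 fold changes were positive for 20 and negative for 37 of the 57 genes, beside 7397 positive and 7064 negative over all genes tested. Their median was -0.06, beside 0.0049 over all genes tested. The CPM of the groups did not overlap for 3 of the 57 genes that were higher and 12 that were lower. Over all genes tested the groups did not overlap for 28.9%. No test of a list as a whole was run.

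Of the 5 genes of mismatch recognition and excision, 1 was lower, none was higher, and the fitted change was negative for all 5, with a median of -0.11. EXO1, the exonuclease that removes the error-containing strand, fell from 95.3, 91.5 and 84.9 CPM in the CBX8 KO libraries to 75.9, 74.8 and 73.8 CPM upon re-expression (log2 fold change -0.27, SE 0.06, FDR = 0.0018). The groups did not overlap, and the fold was 0.827.

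Of the 14 genes of mismatch repair resynthesis, 3 were lower and none was higher, with a median log2 fold change of -0.06. RFC3, a subunit of the clamp loader, fell from 84.8 ± 5.83 to 67.6 ± 2.77 CPM (SD, n = 3 each; log2 fold change -0.33, FDR = 6.0e-04). POLD3, a subunit of DNA polymerase delta, fell from 83.9 ± 2.84 to 71.3 ± 1.52 CPM (log2 fold change -0.23, FDR = 0.0063). PCNA, the sliding clamp, fell from 360 ± 19.0 to 312 ± 9.72 CPM (log2 fold change -0.21, FDR = 0.0055). These 3 genes, like EXO1, also serve DNA replication or other repair, and for each of them the groups did not overlap.

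Of the 10 DNA glycosylases other than MPG, 2 were lower and none was higher, with a median log2 fold change of -0.01. NEIL3, which excises oxidised bases and is known to be expressed in proliferating cells, fell from 100, 101 and 88.2 CPM to 75.2, 74.0 and 78.3 CPM (log2 fold change -0.35, SE 0.06, FDR = 2.2e-04). TDG, which removes thymine from mispairs with guanine and takes part in DNA demethylation, fell from 64.5, 64.0 and 65.7 CPM to 53.1, 54.0 and 53.5 CPM (log2 fold change -0.27, FDR = 0.0033). For TDG the gap between the groups was several times the spread within either of them.

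Of the 15 genes of single-strand break repair, 1 was higher and 1 was lower, with a median log2 fold change of -0.03. LIG3, the ligase that acts with XRCC1, rose from 45.9, 47.5 and 44.8 CPM in CBX8 KO to 57.9, 67.3 and 70.5 CPM with CBX8 returned. Its log2 fold change of 0.50 (SE 0.07, FDR = 2.3e-05) was the largest of the 57 genes in absolute size, a fold of 1.41 with a 95% interval from 1.27 to 1.57. For XRCC1 itself the log2 fold change was 0.12 and did not pass the test. TDP2, which removes topoisomerase adducts from DNA ends, fell from 62.2 ± 4.48 to 53.3 ± 4.13 CPM (log2 fold change -0.22, FDR = 0.0373). The TDP2 call was lost in 8 of 15 alternatives, over which its FDR ranged from 0.0176 to 0.206, among them the fits that left out CBX8 KO replicate 1 (log2 fold change -0.16, FDR = 0.206) or 2 (-0.26, FDR = 0.0606), or that left out WT CBX8 re-expression replicate 1 (-0.17, FDR = 0.179) or 2 (-0.22, FDR = 0.113).

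Direct reversal by demethylation was represented by ALKBH2 and ALKBH3, dioxygenases that remove methyl groups from adenine and cytosine. Neither passed the test, with log2 fold changes of 0.03 and -0.03 (FDR = 0.921 and 0.912), so that no gene of direct reversal, MGMT included, was called. Of the 11 genes of checkpoint signalling, 1 was higher and none was lower, with a median log2 fold change of -0.04. ATM, the kinase that signals double-strand breaks, rose from 70.4, 69.1 and 71.7 CPM to 84.7, 87.4 and 86.8 CPM (log2 fold change 0.29, SE 0.06, FDR = 6.4e-04). Of the 9 called genes of the 6 lists, all other than TDP2 kept their direction and their call in all 15 alternatives.

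**Figure D4:**
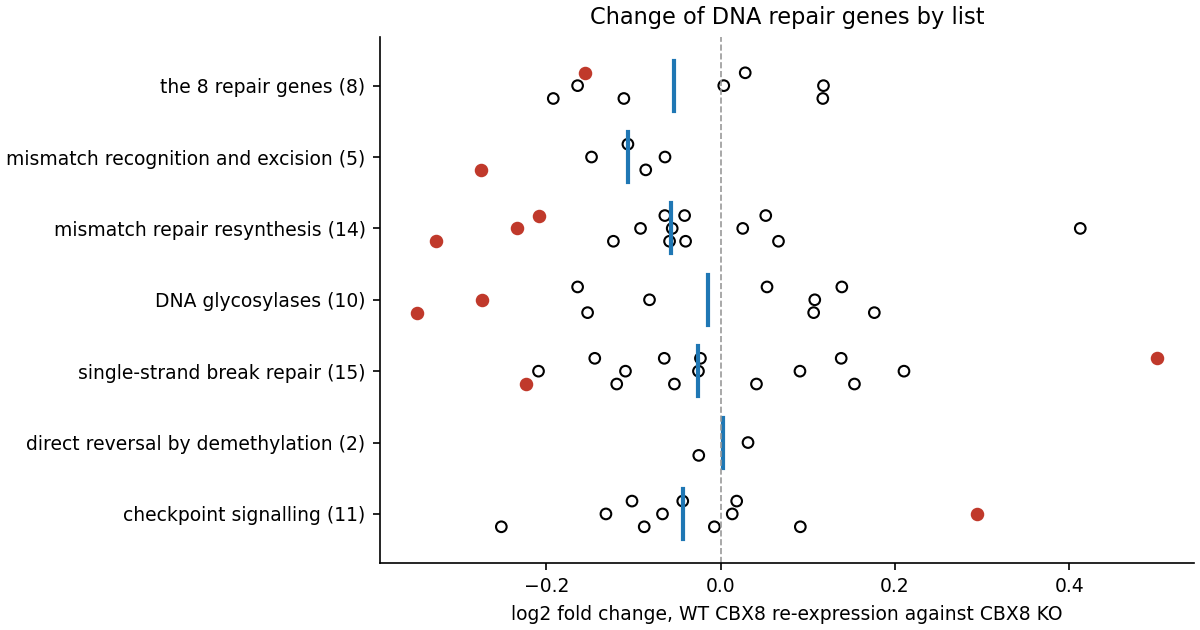
Log2 fold change (horizontal axis) of each of the 8 repair genes and of the genes of the 6 pathway lists (rows, number of genes in parentheses), with genes that passed FDR < 0.05 as filled red points, the others as open points, and the median of each row as a blue line. LIG3, at 0.50, and ATM, at 0.29, are the red points above 0, and the other 8 red points are below 0.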

How the data were processed

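The values deposited by the authors were raw, unnormalized counts for each gene symbol in the 6 libraries, made from oligo-dT-selected, paired-end reads that were trimmed with Trimmomatic and aligned to hg38 with HISAT2. Tool versions and how reads were counted (program, annotation, strand) are not given in the sources used here. The 8 genes and the gene lists were chosen with earlier results of these data known. Low counts were filtered with filterByExpr at default settings (edgeR 4.0.16, R 4.3.3). Libraries were scaled by TMM and compared by glmQLFit and glmQLFTest without covariates. Benjamini-Hochberg adjustment covered all genes tested, with a threshold of 0.05. CPM used TMM-scaled library sizes. The standard error was the absolute log2 fold change over the square root of F. A count was worth 0.114 to 0.128 CPM, and precision from depth covers counting error only. The test was checked on simulated counts. The changes put into them were larger than those of the 8 genes, so the check does not cover recovery of changes as small as theirs.

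Named genes were the 8 members, CBX8, up to the 4 called genes of each pathway list with the largest changes, the neighbours and copies that passed the filter, and the 3 genes most correlated with MGMT. FBXO11 and PIP4P1 were added after the annotation was read. The list of neighbours was drawn up as genes that start head to head, which the annotation bore out for OSGEP and AIMP2 but not for NPRL3. Another listed gene is not reported here. Transcript matches were found with blastn 2.17.0. The motifs and the stretches printed were chosen after the windows had been read. Alternatives were other scalings and filters, DESeq2 1.42.0, limma 3.58.1 voom, a replicate block, edgeR without its legacy option (added after seeing the data) and leaving out each library.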

Additional observations from a re-analysis of the deposited data

How the results depend on the processing

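No member was called higher in any of the 15 alternatives, and MSH3, PMS2, MPG, PARP1 and XRCC1 kept their sign and were not called in any of them, although their size moved: leaving out libraries put MSH3 between -0.23 and -0.10, PMS2 between -0.24 and -0.12, MPG between 0.05 and 0.19, PARP1 between -0.12 and -0.09 and XRCC1 between 0.07 and 0.16, and total counts only put PARP1 at -0.06 and MSH3 at -0.11. APEX1 stayed negative, but the number of members called lower was 0 instead of 1 with upper-quartile scaling (APEX1 log2 fold change -0.14), total counts only (-0.10), DESeq2 (-0.16) and the replicate block (-0.16), and 0 to 1 when single libraries were left out (-0.18 to -0.13). The cause was not tested. Leaving out libraries moved MGMT from -0.047 to 0.10 and MSH6 from -0.020 to 0.019, and MSH6 was at -0.0094 with no filter. It also moved OSGEP from -0.23 to -0.02, PMS2P1 from 0.07 to 0.22, PMS2P3 from 0.03 to 0.27, PMS2P5 from 0.16 to 0.69, AIMP2 from -0.020 to 0.066, PMS2P4 from -0.28 to 0.13, PMS2P7 from -0.15 to 0.24, C9orf16 from -0.040 to 0.19, FAM114A2 from -0.011 to 0.11 and B3GALT6 from -0.073 to 0.076. PMS2P7 was at -0.0075 with no filter and -0.00067 with DESeq2. B3GALT6 was at -0.00066 with RLE size factors, -0.010 with no filter and -0.0011 with DESeq2. Over all genes, 1400 were called higher and 592 lower with total counts only (70.3% higher, against 48.4% with TMM), 502 higher with DESeq2, and 593 to 792 higher and 635 to 851 lower when libraries were left out, the lowest without WT CBX8 re-expression replicate 2. Total counts only shifted the median log2 fold change by 0.06, and no scaling shifted it by more than 0.1. Replicate numbers gave no pairing: deviations from the group means of same-numbered libraries correlated at -0.14, -0.16 and -0.08 over 10393 genes, and 1498 of the 1860 calls were shared with the replicate block. Groups of 3 libraries and about 100 MGMT counts limit what could be detected.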
